A study of Homo sapiens with 6 samples.

Results

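Cyclic AMP (cAMP) signalling was followed through the genes for its enzymes, its main kinase and the proteins that place that kinase in the cell. The members were all genes whose symbol names an adenylyl cyclase (ADCY), a cyclic nucleotide phosphodiesterase (PDE), a catalytic or regulatory subunit of protein kinase A (PKA; PRKAC and PRKAR), a numbered A-kinase anchoring protein (AKAP) or a RAP guanine nucleotide exchange factor (RAPGEF1 to RAPGEF6). They made up 62 of 60611 rows of the table and 60 gene symbols, because PDE4C and PDE8B each have 2 overlapping gene models. RNA came from a line of human pancreatic beta cells, EndoC-BH5, labelled wild type, in 3 libraries of cells given vehicle and 3 of cells given interferon gamma with interleukin 1 beta, a pair of inflammatory cytokines. All 6 libraries are of that 1 line, and the sources used here give neither the cytokine dose nor how long the cells were exposed. Nothing in the labels says that libraries of a group came from separate cultures, so the p-values measure only how these samples vary, and that variation may be technical.

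As background, adenylyl cyclases make cAMP from ATP, most of them at the plasma membrane under the control of stimulatory and inhibitory G proteins, and phosphodiesterases break it down. Cyclic AMP frees the catalytic subunits of PKA from their regulatory subunits, AKAPs tether that complex to membranes and organelles, and the exchange factors EPAC1 (RAPGEF3) and EPAC2 (RAPGEF4) carry a second, PKA-independent branch to the RAP GTPases. In beta cells the incretin hormones act through cAMP, and the messenger strengthens insulin secretion when glucose is high.

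Total counts ranged from 5871481 to 16175364 per library, lowest in vehicle replicate 1. All 9 beta-cell markers examined, INS and PDX1 among them, exceeded 1 CPM. Summed, they were at 9450 to 10147 CPM in vehicle and 13263 to 13917 CPM in cytokine libraries. IAPP (3997 to 8238 CPM), PCSK1 and NKX6-1 were higher with cytokines. The other markers were lower: INS (4011 to 3641 CPM), PDX1, SLC30A8, UCN3, G6PC2 (42.03 to 6.63 CPM) and MAFA (5.16 to 1.46 CPM). PTPRC, which marks leukocytes, had 10 counts over the 6 libraries, and the endothelial markers stayed below 1 CPM. The summed leukocyte list was at 8.097 to 8.54 CPM in vehicle and 23.03 to 24.8 CPM in cytokine libraries, with CD68 the main contributor. The summed fibroblast list was at 2.94 to 3.86 CPM in vehicle and 12.1 to 13.9 CPM in cytokine libraries, with PDGFRB the main contributor, and the part of either list in the results below was not tested. Markers of other islet cells were present too, at 1883 to 2039 CPM over 4 alpha-cell genes, mainly TTR, and 540.3 to 607 CPM over 3 delta-cell genes, mainly SST, in vehicle libraries. The exocrine list summed to 156 to 172 CPM in vehicle and 134 to 145 CPM in cytokine libraries, nearly all from KRT19, while PRSS1 was at 0. Levels are counts scaled to library size with TMM (CPM), and each change is given as the log2 of cytokine over vehicle with its standard error (SE) and adjusted p from edgeR's quasi-likelihood test over all genes. Group values are mean ± SD over n = 3 libraries.

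Members moved in both directions, about as often as genes at large, and those of 1 class often moved apart. PDE4D, RAPGEF5, RAPGEF2 and ADCY1 rose while PDE3B, RAPGEF4, ADCY3 and ADCY8 fell. In bulk RNA such as this, fewer cells expressing a gene and less RNA per cell cannot be told apart. Of the 62 rows, 50 had enough counts to be tested, and 30 of these passed (60%), against 57.1% of all tested genes. Higher members numbered 12 (24%, against 28.3% of all tested genes) and lower members 18 (36%, against 28.8%), with both PDE4C rows among the lower ones. The median log2 change was -0.10 over the tested members and -0.018 over all tested genes. Vehicle and cytokine libraries were fully separated in 29 tested members (58%), against 61.0% of all tested genes. Changes of at least 1.5-fold were called in 17 members (34%), 6 higher and 11 lower, against 22.4% of all tested genes. With scaling by library size alone, which lowered the log2 change of the median gene by 0.20, 8 members were higher and 32 lower, beside 16.7% and 49.2% of all tested genes. In the authors' deposited table, 11 of the 12 higher and 15 of the 18 lower members also passed a false discovery rate of 0.05 in the same direction, the exceptions being PDE6D, ADCY4, PRKACB and PDE7A.

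**Figure D1:**
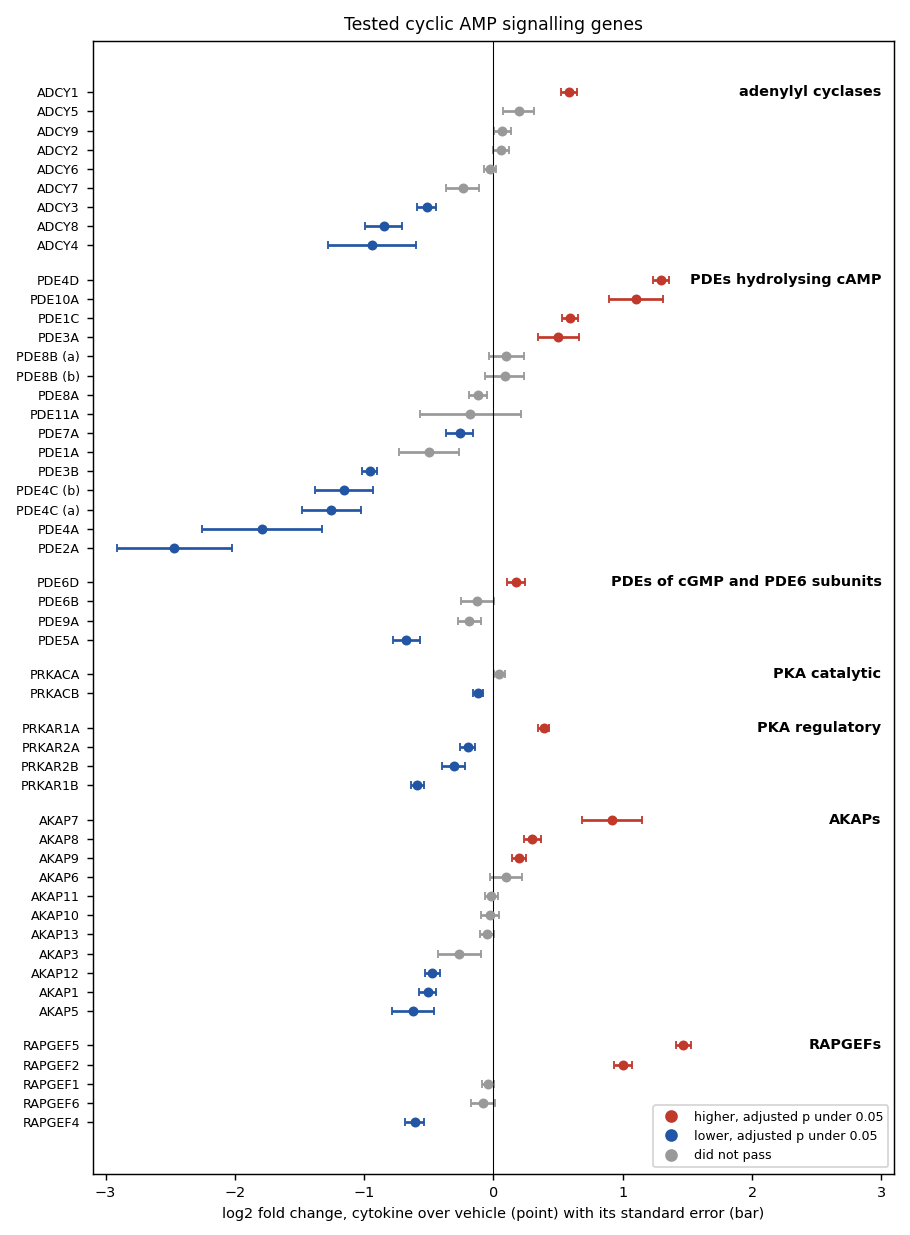
Log2 fold change (cytokine over vehicle, horizontal axis) with its standard error for the 50 tested rows, grouped by class, where red points are higher, blue points lower and grey points did not pass; (a) and (b) are the 2 gene models of PDE4C and of PDE8B. Every class of at least 4 tested members holds both red and blue points, and PDE2A is the lowest at -2.47 and RAPGEF5 the highest at 1.47.

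Sequences around gene starts are shown for members that changed, or that carry a full cAMP response element, to let the letters be read beside the values. Windows from 250 bases before to 50 bases after annotated starts were taken from RefSeq on GRCh38.p14, where 51 of the 60 member genes had 130 windows. Both strands were searched for the cAMP response element TGACGTCA, its half-site TGACG, the interferon gamma activated sequence (GAS) TTCNNNGAA, the interferon response element GAAANNGAAA and the NF-kappaB consensus. The half-site is contained in the full element. Letters below run 5′ to 3′ along the gene's strand, capitals mark the match, and the position is that of the first capital counted from 1 annotated start of the gene, which may have others.

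PDE4D, GAS match at -108, chr5:59039536-59039624, minus strand: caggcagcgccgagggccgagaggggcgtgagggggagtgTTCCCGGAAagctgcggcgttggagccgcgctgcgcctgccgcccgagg
RAPGEF5, interferon response element match at -130 on the opposite strand, chr7:22193856-22193885, minus strand: cgcgctcccgTTTCCTTTTCcctgcctgcc
RAPGEF2, GAS match at 5, chr4:159229372-159229400, plus strand: gtgactgcctTTCGTGGAAagctcacact
RAPGEF4, GAS match at -162, chr2:172859940-172860028, plus strand: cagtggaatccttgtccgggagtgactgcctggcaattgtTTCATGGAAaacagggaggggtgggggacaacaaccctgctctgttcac
PRKAR1A, full cAMP response element at 3, chr17:68512370-68512399, plus strand: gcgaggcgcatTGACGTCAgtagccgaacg
PDE4A, full cAMP response element at -3, chr19:10416759-10416788, plus strand: cgtcagtccgcTGACGTCAcgccccaggag
PDE7B, full cAMP response element at -155, chr6:135851506-135851593, plus strand: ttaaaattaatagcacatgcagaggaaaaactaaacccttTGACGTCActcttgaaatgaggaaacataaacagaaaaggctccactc

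The full cAMP response element stood in windows of 3 member genes with 3 different outcomes: PRKAR1A rose, PDE4A fell and PDE7B was too low to test. It was present in 3.08% of member windows (4 of 130) and 1.85% of all 35116 windows. The same PRKAR1A element was counted in more than 1 of these 4 windows, because windows of its starts overlap. The half-site stood in 24.6% of member windows and 24.6% of all windows. By gene, it stood in 9 of 12 higher, 8 of 14 lower, 4 of 15 uncalled and 3 of 10 untested members. These counts do not allow for the number of windows per gene, and the difference between them was not tested. A GAS match was found in 10% of member windows and 7.66% of all windows. Those shown belong to PDE4D and RAPGEF2, which rose, and to RAPGEF4, which fell. By gene, a GAS match stood in 3 of 12 higher, 3 of 14 lower, 5 of 15 uncalled and 2 of 10 untested members. The interferon response element was found in RAPGEF5 alone among the members (0.769% of member windows, 3.57% of all), and the NF-kappaB consensus in 13.1% against 11.3%. Member genes had 2.55 windows each on average against 1.29 over all genes, so shares beside those of all genes are given per window. A match describes letters and not a bound site, and the counts of each gene are summed over all of its starts.

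Among the adenylyl cyclases, ADCY1 alone of 9 tested genes was higher, 3 were lower and 5 did not pass. With scaling by library size alone, 1 was higher and 6 lower. Beside this class and those below, 28.3% of all tested genes were higher and 28.8% lower by TMM. By library size alone these shares were 16.7% and 49.2%. ADCY6, a cyclase inhibited by calcium, had the highest level per length, 14.8 ± 0.546 CPM per kb of annotated exon in vehicle and 14.5 ± 0.139 in cytokine libraries. It had 128, 119 and 126 CPM in the vehicle libraries and 121, 123 and 122 CPM in the cytokine libraries. The groups overlapped, with a log2 change of -0.03 (SE 0.0456; adjusted p = 0.64), but it was lower with scaling by library size alone (log2 change -0.23, adjusted p = 8.7e-05).

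The cyclases that calcium and calmodulin stimulate, ADCY1, ADCY3 and ADCY8, did not move together. ADCY1, at chr7:45574140-45723116 on the plus strand of GRCh38, had 46.997, 49.97 and 56.9 CPM in the vehicle libraries and 77.2, 79.5 and 78.6 CPM in the cytokine libraries. Every cytokine library was above every vehicle library, and ADCY1 rose 1.499-fold, a log2 change of 0.58 (SE 0.0588; adjusted p = 1.5e-09). ADCY3, a cyclase also known from the cilium and the olfactory system, had 30.01, 29.9 and 29.3 CPM in the vehicle libraries and 22.2, 19.7 and 19.99 CPM in the cytokine libraries. All cytokine libraries lay below the vehicle libraries, a log2 change of -0.52 (SE 0.0723; adjusted p = 5.8e-07). ADCY8, linked to glucose and incretin signalling in beta cells, had 6.83, 8.82 and 7.08 CPM in the vehicle libraries and 4.73, 3.77 and 4.06 CPM in the cytokine libraries. It fell without overlap, a log2 change of -0.85 (SE 0.142; adjusted p = 9.4e-06).

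ADCY4, one of the cyclases stimulated by G protein beta-gamma subunits, was near the lower limit of measurement with 19, 13 and 25 counts with vehicle against 13, 6 and 17 with cytokines. Vehicle replicate 1 was the highest at 3.02 CPM and the groups overlapped. Its fall, a log2 change of -0.94 (SE 0.340; adjusted p = 0.02), did not pass without vehicle replicate 1 (log2 change -0.64, adjusted p = 0.13), without cytokine replicate 1 (adjusted p = 0.052) or 2 (adjusted p = 0.11), or with DESeq2 (adjusted p = 0.053). ADCY2, ADCY5, ADCY7 and ADCY9 did not pass, with log2 changes from -0.24 for ADCY7 to 0.20 for ADCY5. Soluble cyclase ADCY10, which bicarbonate activates, had at most 6 counts in any library and was not tested.

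Summed over the class, cyclase mRNA was at 32.3 ± 0.522 CPM per kb in vehicle and 31.97 ± 0.179 in cytokine libraries. Within that sum the share of ADCY1 went from 11.5% ± 1.14 to 17.8% ± 0.335, while the share of ADCY3 went from 15.2% ± 0.334 to 10.7% ± 0.655 and that of ADCY8 from 3.95% ± 0.633 to 2.195% ± 0.246. ADCY6 kept a share of 45.8% ± 0.963 in vehicle and 45.3% ± 0.631 in cytokine libraries. Such shares are taken within a library, so scaling between libraries does not enter them, but they depend on exon lengths taken over all annotated transcripts.

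Phosphodiesterases that hydrolyse cAMP showed the widest range, with 4 rows higher, 6 lower and 5 not past the test among 15 tested rows, or 3 higher and 8 lower by library size alone. PDE4D, a cAMP-specific enzyme of the family that rolipram inhibits, rose the most. Its gene lies at chr5:58969038-60522120 on the minus strand of GRCh38. It had 30.8, 27.1 and 27.8 CPM in the vehicle libraries and 69.9, 71.99 and 66.1 CPM in the cytokine libraries. All 3 cytokine libraries lay far above the vehicle libraries, a 2.46-fold rise, a log2 change of 1.297 (SE 0.0627; adjusted p = 1.6e-16). PDE1C, which calcium and calmodulin activate, had 37.3, 37.6 and 38.6 CPM in the vehicle libraries and 61.3, 58.2 and 52.1 CPM in the cytokine libraries. It rose 1.51-fold without overlap, a log2 change of 0.59 (SE 0.0641; adjusted p = 6.2e-09).

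PDE10A, a dual-specificity enzyme best known from striatal neurons, rose from a low level, with 8, 20 and 50 counts with vehicle against 77, 72 and 53 with cytokines. In CPM these were 1.27, 1.84 and 2.92 against 5.12, 5.66 and 3.84, a log2 change of 1.100 (SE 0.210; adjusted p = 6.3e-05). PDE3A had 4.45, 2.94 and 3.39 CPM in the vehicle libraries and 4.86, 5.11 and 4.71 CPM in the cytokine libraries. Its rise, a log2 change of 0.50 (SE 0.161; adjusted p = 0.0093), did not pass with scaling by library size alone (log2 change 0.30, adjusted p = 0.11), with DESeq2 (adjusted p = 0.081) or without vehicle replicate 3 (adjusted p = 0.053).

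PDE3B, the cGMP-inhibited enzyme that restrains insulin secretion in beta cells, had the highest vehicle level per length of the cAMP-hydrolysing class and fell. Its gene lies at chr11:14643723-14872044 on the plus strand of GRCh38. It had 70.7, 77.5 and 77.7 CPM in the vehicle libraries and 39.9, 37.96 and 39.3 CPM in the cytokine libraries. The groups were well apart, a log2 change of -0.96 (SE 0.0564; adjusted p = 1.6e-14). The PDE3 family thus held a lower PDE3B and a PDE3A whose rise depended on the setting.

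PDE2A, which cGMP stimulates, had 8, 11 and 19 counts with vehicle against 4, 1 and 3 with cytokines. In CPM the groups did not overlap, a log2 change of -2.47 (SE 0.442; adjusted p = 2.4e-05), on a total of 8 counts over the cytokine libraries. PDE4A, another cAMP-specific enzyme and the carrier of the element shown above, had 10, 9 and 16 counts with vehicle against 3, 1 and 8 with cytokines. It fell without overlap in CPM, a log2 change of -1.79 (SE 0.467; adjusted p = 0.0018), and the log2 change ranged from -2.73 without cytokine replicate 3 to -1.395 without cytokine replicate 2. Both values rest on few counts, and PDE4A could not be tested when at least 1 CPM in 3 libraries was required.

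The 2 gene models of PDE4C overlap on the same strand over 70.7% of the exon bases of ENSG00000105650, so their counts are not independent. The model ENSG00000105650 had 2.699, 2.48 and 3.22 CPM in the vehicle libraries and 1.33, 1.26 and 1.01 CPM in the cytokine libraries, a log2 change of -1.25 (SE 0.229; adjusted p = 3.1e-05). The model ENSG00000285188 fell alike, a log2 change of -1.16 (SE 0.226; adjusted p = 7.8e-05), and the sum of both gave a log2 change of -1.21 (adjusted p = 6.6e-07). In the PDE4 family, therefore, PDE4D rose while PDE4A and PDE4C fell, and PDE4B, with no library above 9 counts, was not tested.

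PDE7A, a cAMP-specific enzyme that rolipram does not inhibit well, moved from 10.4 to 8.79 CPM with a log2 change of -0.26 (SE 0.107; adjusted p = 0.038). PDE8A, which has a high affinity for cAMP, went from 33.8 to 31.2 CPM and did not pass (adjusted p = 0.16). Neither model of PDE8B passed, and PDE1A (3.56 to 2.39 CPM, adjusted p = 0.072) and PDE11A (0.888 to 0.762 CPM) did not pass either. PDE1B and PDE7B, the third carrier of the full element, had at most 19 counts in any library.

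The class total was 19.4 ± 0.359 CPM per kb in vehicle and 19.3 ± 1.12 in cytokine libraries, while its make-up differed. Taking 1 gene model each for PDE4C and PDE8B, the share of PDE3B went from 33.1% ± 1.81 to 17.4% ± 1.26. PDE4D went from 9.02% ± 0.632 to 22.1% ± 0.404 and PDE1C from 14.1% ± 0.155 to 21.5% ± 0.883. PDE3B was the most abundant of these mRNAs per length in each vehicle library, and in the cytokine libraries it came after PDE4D, PDE1C and PDE8A.

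**Figure D2:**
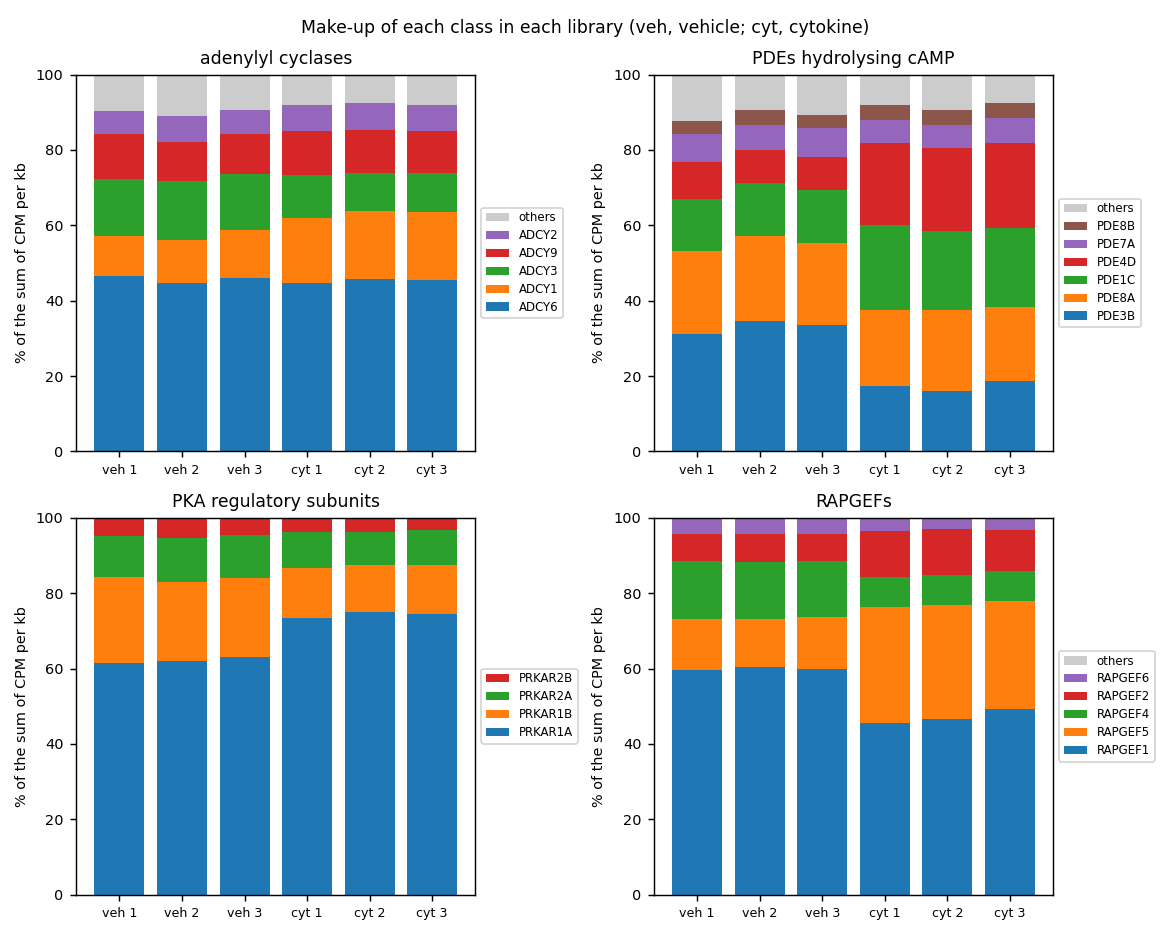
Share of each gene in the sum of its class (percent of CPM per kb of exon, vertical axis, from 0 to 100) in each vehicle (veh) and cytokine (cyt) library, for 4 classes. The PDE3B segment shrinks and the PDE4D and PDE1C segments widen in all 3 cytokine libraries, PRKAR1A widens against PRKAR1B, and RAPGEF5 widens against RAPGEF1 and RAPGEF4.

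Of the enzymes and subunits tied to cGMP, 4 of 8 could be tested, of which 1 rose and 1 fell (0 and 3 by library size alone). PDE5A, the cGMP-specific enzyme that sildenafil inhibits, had 13.2, 12.2 and 13.5 CPM in the vehicle libraries and 8.98, 8.33 and 7.098 CPM in the cytokine libraries. It fell without overlap, a log2 change of -0.67 (SE 0.106; adjusted p = 4.0e-06). PDE9A, which has a high affinity for cGMP, had 22.9, 18.4 and 17.96 CPM in the vehicle libraries and 15.97, 16.4 and 17.96 CPM in the cytokine libraries. It did not pass, with a log2 change of -0.19 (SE 0.0892; adjusted p = 0.075), although it did with scaling by library size alone (log2 change -0.39, adjusted p = 4.6e-04) and without vehicle replicate 3 (log2 change -0.26, adjusted p = 0.044).

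PDE6D, a chaperone that carries prenylated proteins and has no enzyme activity of its own, had 24.6, 28.7 and 28.6 CPM in the vehicle libraries and 31.8, 30.8 and 31.3 CPM in the cytokine libraries. Its rise, a log2 change of 0.17 (SE 0.0693; adjusted p = 0.034), turned to -0.0286 with scaling by library size alone. It also failed the test with no count filter (adjusted p = 0.056), with DESeq2 (adjusted p = 0.091), without vehicle replicate 1 (adjusted p = 0.11) and without cytokine replicate 1 (adjusted p = 0.071). PDE6B, a photoreceptor enzyme, went from 8.402 to 7.29 CPM and did not pass. The other photoreceptor subunit genes PDE6A, PDE6C, PDE6G and PDE6H never exceeded 5 counts in a library.

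Among catalytic subunits of PKA, 2 were tested: PRKACB was lower and PRKACA did not pass, and both were lower with scaling by library size alone. PRKACA had 162, 169 and 164 CPM in the vehicle libraries and 172, 169 and 169 CPM in the cytokine libraries. The groups overlapped, a log2 change of 0.04 (SE 0.0426; adjusted p = 0.41), and the sign turned to -0.16 (adjusted p = 0.0015) with scaling by library size alone. PRKACB had 215, 223 and 223 CPM in the vehicle libraries and 200.4, 205 and 203 CPM in the cytokine libraries. Its fall, a log2 change of -0.12 (SE 0.0412; adjusted p = 0.014), was larger by library size alone (log2 change -0.32, adjusted p = 8.6e-08). By TMM it did not pass with no count filter (adjusted p = 0.094), without vehicle replicate 2 (adjusted p = 0.063) or 3 (adjusted p = 0.075) or without cytokine replicate 1 (adjusted p = 0.11). PRKACG, a testis-expressed retrogene, had 1 count in 1 library.

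All 4 regulatory subunits passed, beside 57.1% of all tested genes. PRKAR1A was higher and the other 3 lower under either scaling. Over all tested genes 28.3% were higher and 28.8% lower by TMM, and 16.7% and 49.2% by library size alone. PRKAR1A, the type I alpha subunit, had the highest level per length of all members, 57.1 ± 3.32 CPM per kb in vehicle and 74.99 ± 1.61 in cytokine libraries. Its gene lies at chr17:68511780-68551319 on the plus strand of GRCh38. It had 364, 399 and 406 CPM in the vehicle libraries and 503, 524 and 508 CPM in the cytokine libraries. The groups did not overlap, a 1.31-fold rise, a log2 change of 0.39 (SE 0.0425; adjusted p = 7.4e-09). It still rose with scaling by library size alone (log2 change 0.19, adjusted p = 2.9e-04).

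PRKAR1B, the type I beta subunit of neuroendocrine tissue, moved the other way with 88.9, 89.4 and 87.7 CPM in the vehicle libraries and 59.2, 57.8 and 59.5 CPM in the cytokine libraries, a log2 change of -0.59 (SE 0.0494; adjusted p = 3.6e-11). The type II subunits, which bind most AKAPs with the higher affinity, fell less: PRKAR2A went from 69.5 to 61.01 CPM (-0.20 on the log2 scale, adjusted p = 0.0028). PRKAR2B went from 19.4 to 15.8 CPM (-0.31 on the log2 scale, adjusted p = 0.0046).

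The regulatory subunits summed by TMM to 91.8 ± 4.297 CPM per kb in vehicle and 101 ± 1.25 in cytokine libraries, and the catalytic subunits to 59.6 ± 1.12 CPM per kb in vehicle and 57.8 ± 0.162 in cytokine libraries. Within the regulatory subunits the share of PRKAR1A went from 62.2% ± 0.928 to 74.3% ± 0.749 and that of PRKAR1B from 21.5% ± 1.101 to 12.98% ± 0.357. The ratio of regulatory to catalytic mRNA per length was 1.49, 1.56 and 1.57 in vehicle and 1.74, 1.77 and 1.74 in cytokine libraries. Every cytokine library was above every vehicle library in this ratio, which is one of mRNA and not of protein.

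**Figure D3:**
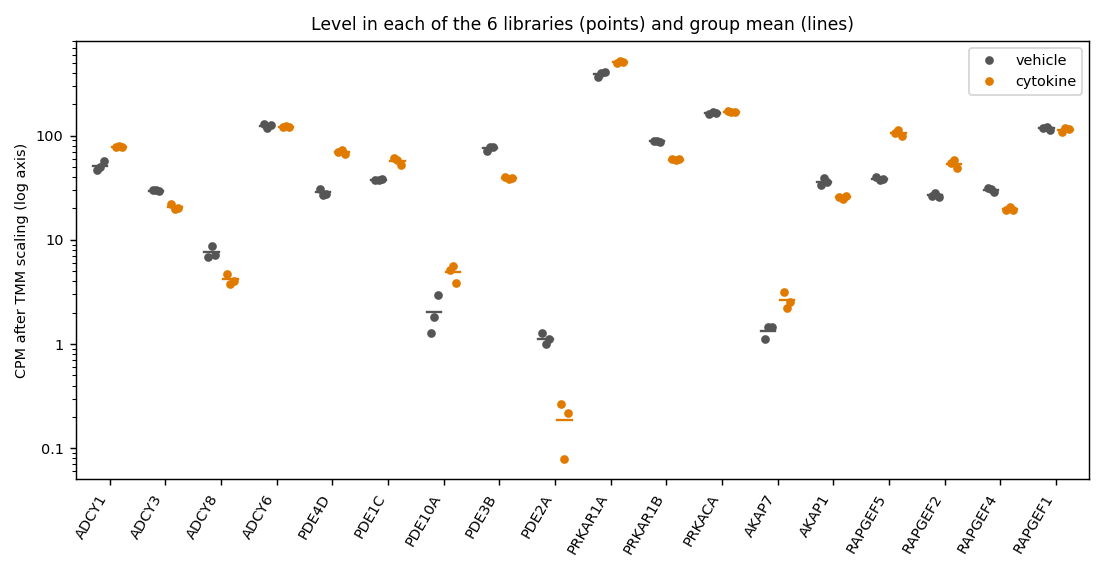
CPM after TMM scaling (vertical log axis) of 18 members in each vehicle (grey) and cytokine (orange) library, with lines at the group means. ADCY6, PRKACA and RAPGEF1 overlap between groups, and the other 15 genes are separated.

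Of 11 tested AKAPs, 3 rose, 3 fell and 5 did not pass, against 1 higher and 7 lower by library size alone. By TMM 27.3% of these AKAPs were higher and 27.3% lower, near the 28.3% and 28.8% of all tested genes. AKAP11, which binds both PKA and glycogen synthase kinase, had the highest level per length of the family. It had 157, 172 and 165 CPM in the vehicle libraries and 159, 177 and 154 CPM in the cytokine libraries, and the groups overlapped, with a log2 change of -0.02 (SE 0.0503; adjusted p = 0.77). It was lower by library size alone (log2 change -0.22, adjusted p = 3.1e-04). AKAP9, a scaffold of the Golgi and centrosome, had 207, 229 and 217 CPM in the vehicle libraries and 252, 270.2 and 227 CPM in the cytokine libraries. The groups overlapped, since cytokine replicate 3 lay below vehicle replicate 2. Its rise, a log2 change of 0.20 (SE 0.0523; adjusted p = 0.0022), turned to -0.00561 with scaling by library size alone (adjusted p = 0.93).

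AKAP7, whose short forms bind membranes near calcium channels, rose from a low level with 7, 16 and 25 counts with vehicle against 47, 28 and 35 with cytokines. These corresponded to 1.11, 1.47 and 1.46 against 3.13, 2.201 and 2.54 CPM without overlap, a log2 change of 0.91 (SE 0.231; adjusted p = 0.0013). AKAP8, a nuclear anchoring protein, moved from 32.7 to 40.6 CPM with a log2 change of 0.30 (SE 0.0640; adjusted p = 2.2e-04), and did not pass with scaling by library size alone (adjusted p = 0.18).

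AKAP1, which tethers PKA to the outer mitochondrial membrane, had 33.5, 39.04 and 36.2 CPM in the vehicle libraries and 25.9, 24.8 and 26.2 CPM in the cytokine libraries. It fell without overlap, a log2 change of -0.51 (SE 0.0688; adjusted p = 3.2e-07). AKAP5, which brings PKA and calcineurin to the plasma membrane, had 4.604, 5.14 and 5.85 CPM in the vehicle libraries and 3.26, 2.99 and 4.201 CPM in the cytokine libraries, a log2 change of -0.62 (SE 0.161; adjusted p = 0.0016). AKAP12, a scaffold at the cell cortex also called gravin, moved from 67.9 to 49.2 CPM with a log2 change of -0.48 (SE 0.0580; adjusted p = 5.8e-08).

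AKAP3, AKAP6, AKAP10 and AKAP13 did not pass, with log2 changes from -0.26 for AKAP3 to 0.10 for AKAP6. The sperm proteins AKAP4 and AKAP14 had 0 counts in each vehicle library and at most 2 in a cytokine library. The summed AKAP level was 62.2 ± 2.89 CPM per kb in vehicle and 61.4 ± 2.46 in cytokine libraries.

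Among the exchange factors, 2 of 5 tested genes rose, 1 fell and 2 did not pass, while library size scaling gave 2 higher and 3 lower. EPAC2, encoded by RAPGEF4, is a cAMP sensor in beta cells and is tied to granule exocytosis. Its gene lies at chr2:172735274-173052893 on the plus strand of GRCh38. It had 31.4, 30.7 and 28.5 CPM in the vehicle libraries and 19.2, 20.4 and 19.3 CPM in the cytokine libraries. All cytokine libraries were below all vehicle libraries, a log2 change of -0.61 (SE 0.0725; adjusted p = 3.7e-08). EPAC1, encoded by RAPGEF3, had at most 10 counts in any library and was not tested.

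The 2 genes that rose encode RAP activators outside the EPAC pair. RAPGEF5, at chr7:22118238-22357144 on the minus strand of GRCh38, had 39.7, 37.8 and 38.1 CPM in the vehicle libraries and 107, 112 and 99.8 CPM in the cytokine libraries. It rose 2.77-fold, the most of all members, a log2 change of 1.47 (SE 0.0568; adjusted p = 8.1e-19). RAPGEF2, a RAP1 activator with a PDZ domain, had 26.5, 28.02 and 26.03 CPM in the vehicle libraries and 54.04, 58.6 and 48.6 CPM in the cytokine libraries. It rose 2.003-fold without overlap, a log2 change of 1.002 (SE 0.0709; adjusted p = 9.9e-13).

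RAPGEF1, a regulator of RAP1 recruited by CRK adaptors, had 119, 121 and 114 CPM in the vehicle libraries and 108, 119 and 116 CPM in the cytokine libraries. It did not pass, with a log2 change of -0.04 (SE 0.0484; adjusted p = 0.48), but was lower by library size alone (log2 change -0.24, adjusted p = 6.9e-05). RAPGEF6 did not pass by TMM either (13.1 to 12.3 CPM, adjusted p = 0.46). The share of RAPGEF5 in the class went from 13.4% ± 0.412 to 29.9% ± 1.03, and that of RAPGEF4 from 15.1% ± 0.369 to 7.95% ± 0.0452. The summed level of the class by TMM was 28.1 ± 0.788 CPM per kb in vehicle and 34.6 ± 1.41 in cytokine libraries.

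Several members share exon bases with another gene, and no source used here says whether counting used strand, so their values are uncertain. ADCY7 shares 41.6% of its exon bases with BRD7, ADCY3 24.6% with CENPO and PRKAR1B 8.53% with DNAAF5, in each case on the opposite strand. CENPO went from 31.1 to 27.5 CPM beside ADCY3, and DNAAF5 from 21.3 to 31.9 CPM while PRKAR1B fell. PDE5A shares 5.54% of its exon bases with the pseudogene AC093752.1 on the opposite strand, which fell from 23.69 to 15.79 CPM. PDE6B shares 14.0% with the opposite-strand gene AC107464.1, which had a higher level than PDE6B and went from 21.5 to 17.2 CPM. PRKAR1A shares 546 exon bases with AC007780.1 on the same strand, which rose from 63.66 to 81.96 CPM. The part of these overlaps in the changes of the members was not tested. RAPGEF6 shares 54.9% of its exon bases with the protein-coding gene AC008695.1 on the same strand.

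Upstream of the cyclases, receptors that raise cAMP gave 2 higher, 4 lower and 2 uncalled genes among 8 tested, or 1 higher and 4 lower by library size alone. Beside this list and those below, 28.3% of all tested genes were higher and 28.8% lower by TMM. By library size alone these shares were 16.7% and 49.2%. GIPR, one of the incretin receptors, went from 196 ± 13.7 to 109 ± 4.69 CPM (-0.84 on the log2 scale, adjusted p = 2.6e-14). The other incretin receptor, GLP1R, is named after its values were seen. It went from 88.5 ± 2.54 to 69.7 ± 6.43 CPM (-0.35, adjusted p = 5.6e-06). GPR119, a lipid receptor coupled to cAMP, went from 46.3 ± 2.85 to 24.5 ± 1.18 CPM (-0.93, adjusted p = 1.3e-12), and the glucagon receptor GCGR rose from 60.4 ± 0.684 to 81.6 ± 1.99 CPM (adjusted p = 2.6e-08). GPBAR1, a bile acid receptor, rose from 18.9 ± 0.989 to 24.3 ± 2.197 CPM (adjusted p = 4.5e-04), but did not pass with scaling by library size alone.

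Receptors that lower cAMP through inhibitory G proteins fell in 9 of 13 tested genes and rose in 3, with a median log2 change of -0.75. Over all tested genes 28.8% fell and 28.3% rose by TMM. The same counts of receptors were found with scaling by library size alone. ADRA2A, the adrenergic receptor that inhibits insulin secretion, went from 62.6 ± 2.57 to 20.9 ± 1.195 CPM (-1.57 on the log2 scale, adjusted p = 4.0e-18). SSTR3, a somatostatin receptor, went from 105 ± 3.25 to 47.2 ± 0.535 CPM (-1.14, adjusted p = 2.4e-17). MTNR1B, a melatonin receptor, rose from 0.964 ± 0.412 to 5.05 ± 1.004 CPM (adjusted p = 8.2e-10), and the cannabinoid receptor CNR1 rose from 1.14 ± 0.244 to 5.48 ± 0.274 CPM (adjusted p = 2.1e-10). The third gene that rose, SSTR2, another somatostatin receptor, is named after its values were seen: it went from 82.4 ± 3.61 to 165 ± 3.02 CPM (adjusted p = 1.1e-16).

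The G protein alpha subunits had log2 changes from -0.16 to 0.14, 2 of 8 tested higher and 3 lower by TMM, against 0 higher and 6 lower by library size alone. GNAS, the stimulatory subunit that activates the cyclases, had 8817 ± 125 and 9734 ± 77.1 CPM, a log2 change of 0.14 (SE 0.0327; adjusted p = 4.8e-04), which turned to -0.0593 with scaling by library size alone, as GNA11 turned to -0.0681. GNAI2 and GNAI3, which are inhibitory, were lower by TMM with log2 changes of -0.16 and -0.15. Of the inhibitor peptides that bind free PKA catalytic subunits, PKIB rose from 13.6 ± 0.898 to 21.98 ± 0.446 CPM (adjusted p = 5.5e-08), and PKIA and PKIG were lower with log2 changes of -0.37 and -0.19 (adjusted p = 4.6e-06 and 0.029).

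Anchoring proteins outside the numbered AKAPs were higher in 8 and lower in 4 of 14 tested genes, and in 3 and 6 with scaling by library size alone. EZR, which links membranes to actin, rose from 293 ± 16.4 to 453 ± 8.02 CPM (adjusted p = 4.5e-13), and PDE4DIP, also called myomegalin, went from 279 ± 13.03 to 213 ± 9.698 CPM (-0.38 on the log2 scale, adjusted p = 3.0e-08). AKAIN1 was lower (14.4 to 10.9 CPM, adjusted p = 5.8e-04) and RAB32 higher (22.8 to 31.5 CPM, adjusted p = 4.6e-06). Partners of the exchange factors were higher in 3 and lower in 3 of 11, or 2 and 4 by library size alone. RAP1B, one of the RAP GTPases, rose from 131 ± 5.04 to 207 ± 2.66 CPM (adjusted p = 2.9e-13), and RAP2B rose from 18.4 to 25.8 CPM (adjusted p = 1.8e-06). RAP1A, RAP2A and RAP2C did not pass (adjusted p = 0.075, 0.091 and 0.16). RAP1GAP2, which switches RAP1 off, was lower with a log2 change of -0.36 (adjusted p = 4.0e-09). PLCE1, a RAP-regulated phospholipase, went from 10.2 ± 0.410 to 4.13 ± 0.358 CPM (-1.297 on the log2 scale, adjusted p = 6.2e-10).

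Genes for proteins that bind or export cyclic nucleotides were higher in 4 and lower in 3 of 10 tested, and in 3 and 4 with scaling by library size alone. The Popeye-domain genes BVES and POPDC3, whose products bind cAMP, rose from 12.4 ± 0.505 to 30.3 ± 3.58 CPM and from 3.33 ± 0.376 to 7.36 ± 0.607 CPM (adjusted p = 1.1e-12 and 2.3e-07). ABCC5, an exporter of cyclic nucleotides, was lower with a log2 change of -0.78 (adjusted p = 1.7e-13) and the pacemaker channel HCN4 with -0.51 (adjusted p = 4.5e-08).

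Downstream of PKA, 8 of 11 genes for CREB-family factors, coactivators and SIK kinases rose, CRTC1 fell and 2 did not pass. With scaling by library size alone, 7 were higher and 2 lower. Over all tested genes 28.3% were higher and 28.8% lower by TMM. The kinase genes SIK1, SIK2 and SIK3 were all among those that rose (log2 changes of 2.97, 0.67 and 0.35). CREM, which also encodes an inducible repressor of the response, rose from 7.64 ± 1.14 to 43.3 ± 3.14 CPM (adjusted p = 2.9e-19). SIK1, a kinase that PKA restrains and cAMP induces, rose from 3.73 ± 0.470 to 29.2 ± 0.554 CPM (adjusted p = 7.3e-20). CRTC1, a CREB coactivator, went from 127 ± 13.01 to 88.7 ± 5.596 CPM (-0.50 on the log2 scale, adjusted p = 6.2e-08).

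Of 18 tested genes known as targets of the cAMP response element, 16 rose, NPTX2 fell and SST did not pass, with a median log2 change of 1.28. Library size scaling gave 15 higher and 2 lower. Over all tested genes 28.3% were higher and 28.8% lower by TMM, beside 16.7% and 49.2% by library size alone. This list was chosen with earlier results of these data known. FOS, an early-response transcription factor, rose from 9.61 ± 1.27 to 75.2 ± 3.46 CPM (adjusted p = 1.4e-22), and NPTX2, a secreted pentraxin, went from 723 ± 24.2 to 247 ± 5.701 CPM (-1.55 on the log2 scale, adjusted p = 6.9e-23). FOS, JUNB, DUSP1 and NR4A1 are also known as early-response genes to many stimuli. The list contains the member PDE4D, as well as CREM and SIK1, and it is described by its counts without a test of the list.

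**Figure D4:**
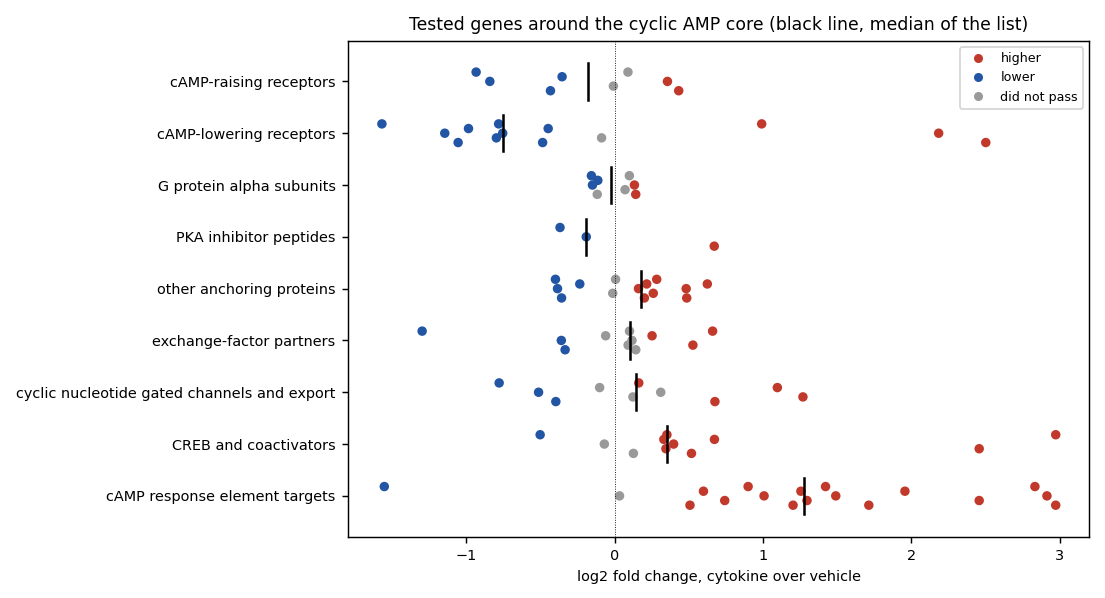
Log2 fold change (cytokine over vehicle, horizontal axis) of each tested gene in 9 lists around the cAMP core, coloured by call, with a black line at the median of each list. The response element targets lie mostly right of 0 and the cAMP-lowering receptors mostly left, with medians of 1.28 and -0.75 beside -0.018 over all tested genes.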

How the data were processed

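RNA from the 6 libraries was isolated with Nucleospin miRNA columns and prepared with the strand-marking NEBNext Ultra II Directional chemistry, per the labels' protocols. Cutadapt 2.10, STAR 2.7.5a, HTSeq 0.12.4, Picard 2.23.2 and the build GRCh38 are named, without roles, per the submitters' processing notes. The authors deposited estimated counts per gene and library, not normalised, of which 67.3% to 73.5% of those above 0 lay within 0.005 of a whole number, and a log2 fold change, mean log2 CPM, F score and p-value with false discovery rate per gene, per the file headers. Columns named NT were taken as vehicle, being the only group besides the cytokine columns.

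Counts were rounded to whole numbers, filtered with filterByExpr (17863 genes kept), scaled with TMM and tested in edgeR 4.0.16 (robust quasi-likelihood, group alone, two-sided, Benjamini-Hochberg over all tested genes, threshold 0.05). SE was the log2 change divided by the square root of F. Exon lengths and overlaps came from GENCODE 29, which held all 62 members. Members with an absolute log2 change of at least 0.5 past the test, and the 2 highest by CPM in each class, were described in every library. Other lists gave up to 2 higher and 2 lower genes. SSTR2, GLP1R, AKAP8, AKAP12, PDE7A and the remaining genes named only with group means lie outside that rule. Members and lists were chosen with earlier results of these data known. Alternatives were DESeq2 1.42.0, DESeq2 size factors, library size alone, other count filters, a replicate block, an adjusted p of 0.01 and each library left out; summing gene models of 1 symbol was added after seeing the data. In a simulation of the 17863 genes, only 200 were given a change, all drawn from genes above a mean of 2 CPM in vehicle. The test found 46% of those with a log2 change of 0.25, 86% at 0.5, and 100% at both 1 and 2. Of its 187 calls 21 were false, a larger share than the threshold of 0.05. The data gave 10201 calls, far more than were simulated, so these rates may not carry over. Recovery therefore gives no rate for genes below 2 CPM in vehicle, such as PDE2A, PDE4A, AKAP7 and ADCY4. Above that level it was not split by expression. Replicates of a group differed by more than sampling noise (chi-square per gene 1.37 to 2.45), so each was counted.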

Additional observations from a re-analysis of the deposited data

How the results depend on the processing

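Over the 14 alternatives, the count of higher members ranged from 8 to 12 and that of lower members from 15 to 32, the highest with scaling by library size alone (32). When 1 library was left out, 11 to 12 members were higher, 15 to 18 lower, and 8932 to 9871 genes were called in all. Of 30 named members, 20 kept their direction and call under every alternative that could be fitted, and 388 of 418 values did. With scaling by library size alone, PRKACA turned to -0.16, AKAP9 to -0.00561 and PDE6D to -0.0286 on the log2 scale, which follows from the lower level that this scaling gives the median gene, and ADCY6, AKAP11, RAPGEF1 and PDE9A became lower (-0.23, -0.22, -0.24 and -0.39). Among the values with 1 library left out, AKAP11, which did not pass, ranged from -0.0726 without cytokine replicate 2 to 0.0328 without cytokine replicate 3, and was also above 0 without vehicle replicate 2 (0.0259) and cytokine replicate 1 (0.0122). RAPGEF1, which did not pass either, ranged from -0.0671 without vehicle replicate 3 to 0.0109 without cytokine replicate 1. With the replicate number as a block (replicate block), 12 members were higher, 19 lower and 10098 genes were called, and no named member changed its call. The same-numbered libraries of both groups did not deviate together (r = 0.0115, -0.0471 and -0.0499 for numbers 1, 2 and 3), and they share only a number. PDE4A gave no value when 1 CPM in 3 libraries was required. No library exceeded 19 counts in the 12 members left untested, and PDE2A, PDE4A and PDE11A were tested at a like depth.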
